A study of Caenorhabditis elegans with 12 samples.

Results

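C-type lectins are proteins built around the C-type lectin-like fold, which in some members binds carbohydrates with the help of calcium. Caenorhabditis elegans carries a much expanded family of clec genes, many of whose products are secreted, and many of the well-studied ones are made in the intestine and respond to bacterial infection. The genes described here are the 234 genes, of 23515 in the deposited table, whose symbol is clec- followed by a number. They were chosen by symbol alone, and the fold itself was not checked.

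Polyadenylated RNA was measured in whole larvae of the third larval stage, grown on Escherichia coli at 15 °C, in 12 libraries. The groups were the N2 wild type, unc-120(st364) larvae of the strain RW364 and fhod-1(tm2363) larvae of the strain XA8001, with 4 libraries each and no treatment. The product of unc-120 is a transcription factor, the serum response factor of the worm, with a role in muscle. That of fhod-1 is a formin, a kind of protein that builds actin filaments. Each library is a population of larvae, each mutant is represented by 1 allele in 1 strain, and nothing in the labels says that the 4 libraries came from separate cultures, so p-values measure the spread between these libraries, which may be technical. In RNA from whole larvae, fewer cells of a type and less RNA per cell cannot be told apart.

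Levels keep the unit of the deposited table, which was treated as scaled by gene length and proportional to TPM, with a sum of 638200 in every library. On that reading levels of different genes can be compared. A gene was tested if it reached a level of 1 in at least 4 of the 12 libraries, and was called at an adjusted p under 0.05 in limma, adjusted over all 12831 genes tested. Fold changes are on the scale log2(value + 1), which understates the change of genes at low levels. Sequencing depth is unknown, so precision rests on the spread between libraries.

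Most C-type lectin genes were at very low levels in these larvae. The mean over 12 libraries was at least 100 for 2 genes, 10 to 100 for 27, 1 to 10 for 44 and under 1 for 161, of which 99 were under 0.1. The median of the 234 means was 0.203, against 1.36 over all genes in the table. In 91 of the genes at least 1 library was listed at 0, and no gene was listed at 0 in all 12. The filter left 77 genes for testing and 157 untested, and 1 of the 18 annotated pseudogenes was among the tested. Together the 234 genes took 0.172% to 0.249% of a wild-type library, 0.161% to 0.230% of an unc-120(st364) library and 0.215% to 0.258% of an fhod-1(tm2363) library, and these ranges overlapped.

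**Figure D1:**
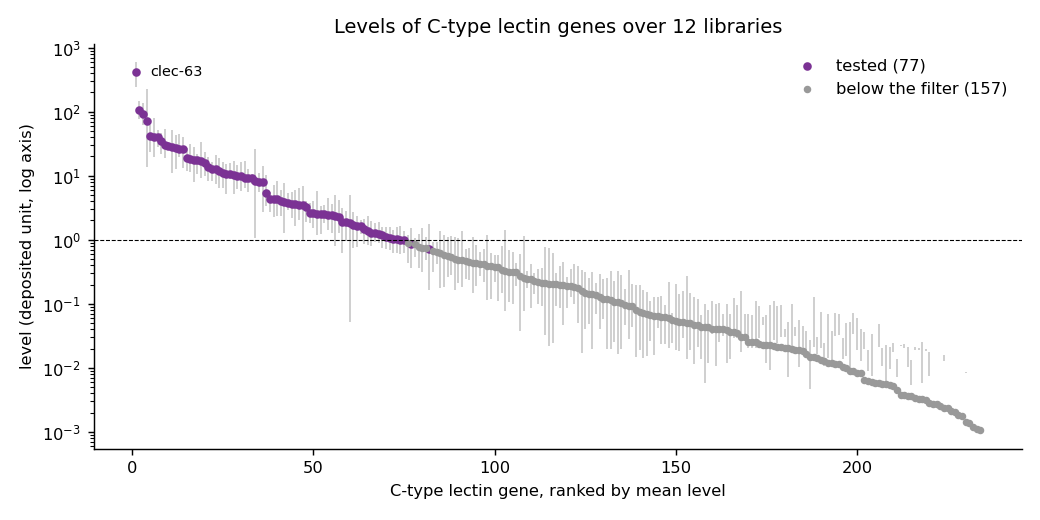
Mean level over 12 libraries of each of the 234 C-type lectin genes, ranked, on a log axis in the deposited unit. Grey lines run from the lowest value above 0 to the highest value, and the dashed line marks a level of 1. The 77 tested genes lie towards the top, and clec-63 stands above all others.

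A few genes made up most of this output. The most abundant was clec-63 (WBGene00009394, chromosome II, 12895638 to 12897462, plus strand), which stands in a run with clec-62, clec-64, clec-65 and clec-66. Its levels were 401.8, 462.7, 407.7 and 311.0 in wild-type replicates 1 to 4, 258.0, 242.1, 409.2 and 527.8 in unc-120(st364) larvae, and 468.9, 505.9, 400.4 and 588.8 in fhod-1(tm2363) larvae. The groups overlapped, and no comparison was called (log2 differences from wild type of -0.20 in unc-120(st364) larvae and 0.31 in fhod-1(tm2363) larvae, SE 0.23, limma adjusted p = 1.00 and 0.457). Together clec-63, clec-1 and clec-50 held 36.8% to 48.99% of the summed level of the family in a library, and the 10 most abundant genes held 58.4% to 67.6%.

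The gene clec-1 (WBGene00017772, chromosome V, 5700010 to 5701080, plus strand) was at 98.1, 76.0, 92.1 and 77.8 in the wild type, 146.7, 101.9, 112.3 and 116.5 in unc-120(st364) larvae, and 122.7, 107.9, 104.8 and 104.7 in fhod-1(tm2363) larvae. All libraries of both mutants lay above all wild-type libraries, but neither log2 difference, 0.46 and 0.36 (SE 0.15), was called (limma adjusted p = 0.222 and 0.163). In unc-120(st364) it was called with a replicate block and length correction together (limma adjusted p = 0.0367), a fit that called 5.51% of all tested genes. The next in order, clec-50 (WBGene00012253, chromosome V, 19752400 to 19755368, minus strand), has been studied in bacterial infection. It was at 104.8, 90.7, 77.05 and 62.8 in the wild type, 61.9, 73.9, 65.9 and 74.7 in unc-120(st364) larvae, and 136.3, 123.1, 108.2 and 110.6 in fhod-1(tm2363) larvae. The fhod-1(tm2363) libraries lay above all 8 others. The means of clec-1 and clec-50 differed by less than the spread between libraries in wild type.

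The other genes among the 10 most abundant differed in how steady they were. Among the steady ones was clec-51, at 28.8 ± 2.28 in the wild type, 30.9 ± 2.25 in unc-120(st364) larvae and 29.1 ± 2.10 in fhod-1(tm2363) larvae (SD, n = 4), with a log2 difference of 0.02 between fhod-1(tm2363) and wild type (SE 0.12). It lies on the strand opposite faah-1. Its neighbour clec-52, reported in Staphylococcus aureus infection, was at a like level of 20.8 ± 11.7, 33.7 ± 12.5 and 29.6 ± 7.35 but with a far wider spread. Least steady of the 77 tested genes was clec-47 (chromosome V, 15175673 to 15176324), with a within-group SD of 1.01 on the log2 scale against a median of 0.25 over the tested C-type lectin genes and 0.24 over all tested genes. Its levels were 225.9, 100.5, 114.0 and 50.6 in the wild type, 134.7, 38.5, 28.9 and 16.9 in unc-120(st364) larvae and 56.4, 32.6, 44.4 and 13.7 in fhod-1(tm2363) larvae. Replicate 1 was highest and replicate 4 lowest in each group, so part of this spread followed the replicate number. At every replicate number both mutants lay below wild type. In fhod-1(tm2363) the log2 difference from wild type was -1.68 (limma, SE 0.57, adjusted p = 0.102), so this difference was not called. It was called when only the groups compared were fitted (limma adjusted p = 0.0463), and other fits that call it are given with the alternatives. For clec-180, clec-48, clec-265 and clec-41 the group means lay between 27.7 and 48.3, the groups overlapped in every comparison, and none was called.

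Set against wild type, larvae mutated in the formin gene had more C-type lectin transcripts at a raised level than at a lowered one. Of the 77 tested genes 15 rose and 2 fell. The 15 rises are 19.5% of the tested C-type lectin genes, where 3.86% of all tested genes rose, and the 2 falls are 2.60%, where 1.37% of all tested genes fell. In all, 17 genes or 22.1% were called, where the background was 5.23%. Some genes passed the filter through the group in which they were high, so the same count was made over genes at 1 or more in all 12 libraries. There 10 of 56 C-type lectin genes rose (17.9%, background 3.00%) and 1 fell (1.79%, background 1.23%), together 19.6% with a background of 4.24%. The median log2 fold change of the 77 genes was 0.26, beside 0.07 over all tested genes, and 54 of the 77 lay above 0 (70.1%, beside 59.8% of all). Without a call rule, 24 of the 77 had all fhod-1(tm2363) libraries above all wild-type libraries (31.2%, background 10.8%) and 2 had them all below (2.60%, background 4.70%), together 33.8% with a background of 15.5%. Unadjusted p-values under 0.05 were found for 39 (50.6%, background 22.5%), 32 higher (41.6%, background 16.6%) and 7 lower (9.09%, background 5.85%).

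The libraries also differed along an axis of gene length, with slopes of log2 level on log2 exonic length from -0.26 in unc-120(st364) replicate 2 to 0.15 in fhod-1(tm2363) replicate 4, and the groups overlapped in it. Corrected for length by loess, 16 C-type lectin genes rose and 4 fell (20.8% and 5.19%, beside 8.55% and 8.95% of all tested genes). Together these 20 were 26.0%, beside 17.5% of all tested genes, and 16 of the original 17 calls were among them. With quantile normalization 10 rose and 3 fell, while over all tested genes the split moved from 495 rises and 176 falls to 319 rises and 310 falls. The count of 17 depended on single libraries. It was 8 of 74 tested without fhod-1(tm2363) replicate 2 (background 1.76%) and 9 of 75 without replicate 4 of the same group (background 2.45%). It was 11 when fhod-1(tm2363) replicate 3 or wild type replicate 2 or 3 was left out (backgrounds 2.62%, 2.53% and 2.36%). Calls over all tested genes fell in these fits as well, from 671 to between 224 and 335.

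**Figure D2:**
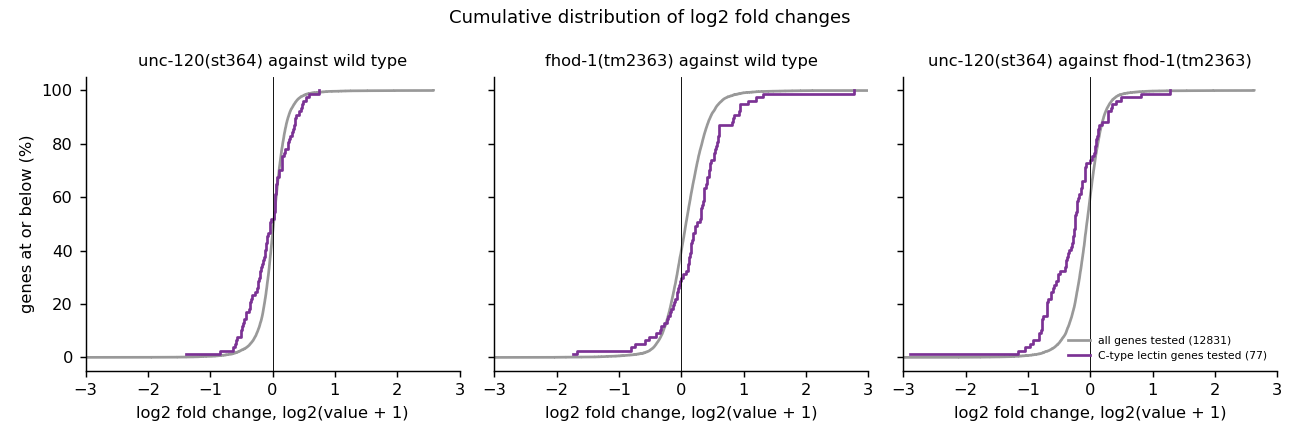
Cumulative distribution of log2 fold changes, on the log2(value + 1) scale, for the 77 tested C-type lectin genes (purple) and all 12831 tested genes (grey) in the 3 comparisons. The purple curve lies to the right of the grey one over most of its length for fhod-1(tm2363) against wild type (medians 0.26 and 0.07) and to the left for unc-120(st364) against fhod-1(tm2363) (medians -0.25 and -0.06).

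The largest rise was that of clec-60 (WBGene00014046, chromosome II, 10480152 to 10481846, minus strand), a gene known for its induction in Staphylococcus aureus infection. It was at 3.25, 2.89, 1.66 and 1.06 in the wild type, 3.71, 1.73, 1.44 and 1.06 in unc-120(st364) larvae, and 18.1, 19.0, 18.4 and 25.8 in fhod-1(tm2363) larvae. Every fhod-1(tm2363) library was several times above every other library, and the wild-type and unc-120(st364) libraries overlapped. The mean was 9.18 times that of wild type, with a log2 fold change of 2.77 (limma, SE 0.26, adjusted p = 2.44e-05), or 2.69 after length correction. Over the alternatives, leaving out each library included, the adjusted p in limma ran from 2.1e-05 to 4.41e-04.

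The neighbour of clec-60, clec-61 (chromosome II, 10488747 to 10490514, minus strand), which has been reported in the same infection, was too low to be tested. Its levels were 0.078, 0.190, 0.086 and 0.122 in the wild type, 0.146, 0.113, 0.133 and 0.141 in unc-120(st364) larvae, and 0.428, 0.536, 0.478 and 1.40 in fhod-1(tm2363) larvae. The fhod-1(tm2363) libraries lay above all others here too, with a mean 5.97 times that of wild type. Of the others in the same run of 5 genes, clec-143 did not share this pattern. At 1.52 ± 0.19 in the wild type and 1.74 ± 0.30 in fhod-1(tm2363) larvae, it was not called (log2 fold change 0.12, limma adjusted p = 0.560). The levels of clec-58 and clec-59 were too low to judge, with group means of 0.018 or less. Neighbouring clec genes can be near copies, and how reads shared between copies were assigned is not given in the sources used here.

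Other genes known from infection studies rose as well. The gene clec-7 (WBGene00017364, chromosome V, 7328392 to 7330001, plus strand) was at 0.946, 2.75, 1.42 and 1.97 in the wild type, 2.29, 2.09, 3.17 and 3.798 in unc-120(st364) larvae, and 5.14, 6.16, 4.55 and 7.02 in fhod-1(tm2363) larvae. The unc-120(st364) libraries lay between the other groups, overlapping the wild type and not fhod-1(tm2363). Its log2 fold change in fhod-1(tm2363) larvae was 1.30 (limma, SE 0.20, adjusted p = 0.00183). The same order held for clec-17 (WBGene00008477, chromosome I, 12430028 to 12431500, minus strand), at 2.74, 5.51, 4.00 and 6.38 in the wild type, 5.55, 7.56, 7.27 and 8.95 in unc-120(st364) larvae, and 10.7, 14.4, 10.1 and 11.3 in fhod-1(tm2363) larvae. It rose by a log2 fold change of 1.19 (limma, SE 0.20, adjusted p = 0.00404). For clec-42 (chromosome V, 18191412 to 18194167, plus strand) the levels were 0.794, 1.52, 1.34 and 1.57 in the wild type, 1.11, 0.858, 2.44 and 3.04 in unc-120(st364) larvae, and 3.55, 3.78, 3.00 and 5.06 in fhod-1(tm2363) larvae, a log2 fold change of 1.07 (limma, SE 0.23, adjusted p = 0.0153). Its call was lost in 3 of the 12 fits that left out 1 library, with an adjusted p in limma of at most 0.0571 without wild type replicate 1.

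The gene clec-82 (WBGene00021873, chromosome IV, 2835664 to 2838583, plus strand) was at 0.711, 0.276, 0.429 and 0.194 in the wild type, 0.333, 0.205, 0.162 and 0.162 in unc-120(st364) larvae, and 1.73, 1.78, 1.47 and 1.11 in fhod-1(tm2363) larvae. It passed the filter through the 4 fhod-1(tm2363) libraries alone, so that a difference was built into its being tested. The log2 fold change was 0.85 (limma, SE 0.12, adjusted p = 0.00112), and it was not tested where an fhod-1(tm2363) library was left out.

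The list of C-type lectins known from infection studies held 22 genes, all in the table. Of the 18 that passed the filter, 5 rose in fhod-1(tm2363) larvae, namely clec-7, clec-17, clec-42, clec-60 and clec-82, and none fell, where 3.86% of all tested genes rose. Without clec-82, whose difference was built into its being tested, 4 of 17 rose. The list was chosen with earlier results of these data known, so its share is a description and not a test. The median log2 fold change of the 18 was 0.43, beside 0.07 over all tested genes. The 6 most abundant of this list were not called against wild type: clec-63, clec-50, clec-41, clec-52, clec-83 and clec-85 had log2 fold changes of 0.31, 0.53, 0.11, 0.59, 0.13 and 0.34 there. The 5 that rose had wild-type means of 0.402 to 4.66.

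Rises of about 2-fold were found among genes with no role assigned here. The gene clec-218 (WBGene00020938, chromosome V, 8307942 to 8310766, plus strand) was at 2.01, 2.58, 2.10 and 2.15 in the wild type, 3.08, 3.23, 2.99 and 3.19 in unc-120(st364) larvae, and 6.47, 4.97, 4.79 and 4.57 in fhod-1(tm2363) larvae. The 3 groups did not overlap, and the log2 fold change in fhod-1(tm2363) larvae was 0.94 (limma, SE 0.12, adjusted p = 4.42e-04). For clec-76 (WBGene00021587, chromosome IV, 3965246 to 3969025, plus strand) the levels were 1.44, 1.51, 1.78 and 1.62 in the wild type, 1.85, 1.45, 1.96 and 2.26 in unc-120(st364) larvae, and 4.23, 4.52, 3.19 and 3.88 in fhod-1(tm2363) larvae, a log2 fold change of 0.93 (limma, SE 0.12, adjusted p = 5.57e-04). Only the fhod-1(tm2363) libraries stood apart.

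The gene clec-10 (WBGene00015403, chromosome II, 402580 to 404235, plus strand), 1 of the 10 most abundant, was at 19.0, 26.97, 20.8 and 21.8 in the wild type, 19.9, 21.2, 25.6 and 33.3 in unc-120(st364) larvae, and 37.9, 43.5, 36.3 and 54.2 in fhod-1(tm2363) larvae. Its log2 fold change was 0.92 (limma, SE 0.18, adjusted p = 0.0108). A like pattern was seen for clec-72 (WBGene00021583, chromosome IV, 3944816 to 3947364, plus strand), with 12.2, 12.3, 12.5 and 9.86 in the wild type, 11.1, 11.2, 15.1 and 17.9 in unc-120(st364) larvae, and 21.4, 21.8, 19.4 and 23.5 in fhod-1(tm2363) larvae. All fhod-1(tm2363) libraries exceeded all others in both genes, and clec-72 rose by 0.83 on the log2 scale (limma, SE 0.16, adjusted p = 0.00915). For clec-227 (WBGene00008593, chromosome V, 14472529 to 14474374, plus strand) the levels were 1.32, 1.60, 1.29 and 1.88 in the wild type, 1.502, 1.67, 1.33 and 2.45 in unc-120(st364) larvae, and 2.94, 3.95, 2.62 and 4.24 in fhod-1(tm2363) larvae, a log2 fold change of 0.81 (limma, SE 0.16, adjusted p = 0.00895).

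The remaining rises were smaller and close to the threshold. Those of clec-31, clec-53, clec-54, clec-210 and clec-264 had log2 fold changes of 0.60, 0.52, 0.44, 0.61 and 0.60 and limma adjusted p-values of 0.0185, 0.0349, 0.0395, 0.0480 and 0.0454. In each of these 5 genes all fhod-1(tm2363) libraries lay above all wild-type libraries. Over 12 fits, each without a different library, the call was lost in 5 for clec-31, 9 for clec-53, 9 for clec-54, 8 for clec-210 and 10 for clec-264. The largest adjusted p in limma was 0.171, for clec-264 without fhod-1(tm2363) replicate 2. The gene clec-264 lies on the strand opposite fkb-6.

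**Figure D3:**
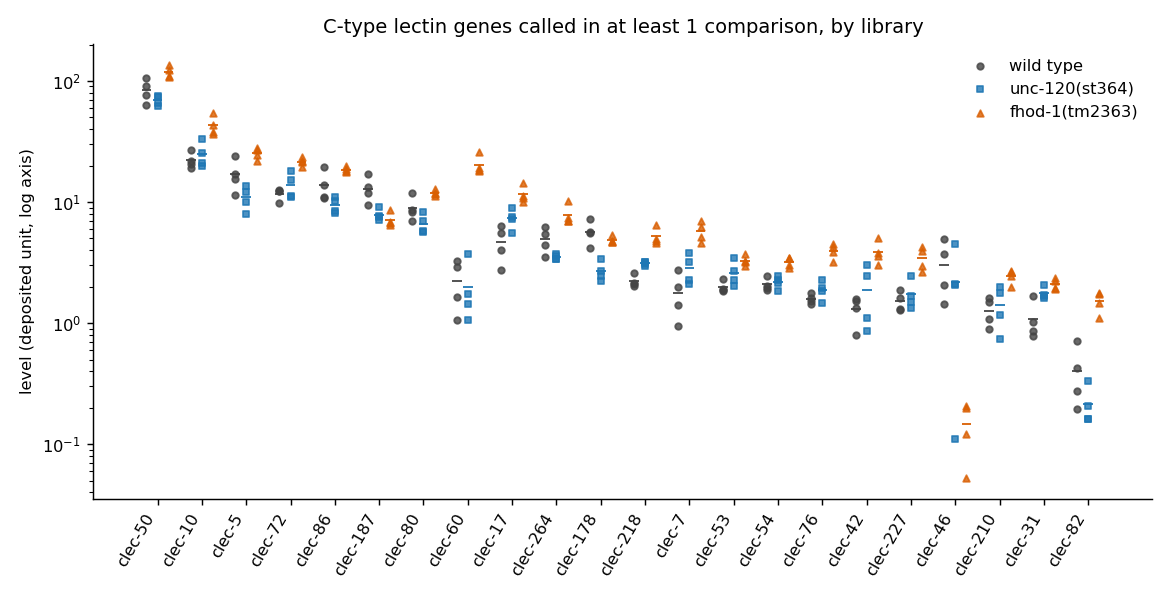
Levels in every library, in the deposited unit on a log axis, of the 22 C-type lectin genes called in at least 1 of the 3 comparisons, ordered by mean level. Points are libraries, 4 per group, and bars are group means. For clec-60 the fhod-1(tm2363) libraries lie at 18.1 to 25.8 and all others at 3.71 or below, and for clec-46 the fhod-1(tm2363) libraries lie at 0.209 or below.

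Falls in fhod-1(tm2363) larvae were called for clec-46 and clec-187. The first, clec-46 (WBGene00017202, chromosome V, 7637277 to 7637792, minus strand), is an annotated pseudogene. It was at 1.45, 3.71, 2.07 and 4.96 in the wild type, 0.111, 4.47, 2.12 and 2.08 in unc-120(st364) larvae, and 0.0524, 0.123, 0.199 and 0.209 in fhod-1(tm2363) larvae. The fhod-1(tm2363) libraries lay below all wild-type libraries, but unc-120(st364) replicate 1 lay as low as they did. It passed the filter through wild-type and unc-120(st364) libraries alone. The log2 fold change in fhod-1(tm2363) larvae was -1.74 (limma, SE 0.37, adjusted p = 0.0162), and its adjusted p in limma was 0.0579 when fhod-1(tm2363) replicate 2 was left out. On the other strand beside it, clec-45 was at 5.26 ± 2.49 in the wild type and 2.35 ± 0.49 in fhod-1(tm2363) larvae, a log2 difference of -0.81 that was not called (limma, SE 0.35, adjusted p = 0.181). Over the 12 libraries the log2 values of clec-45 and clec-46 had a Pearson correlation of 0.908.

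The gene clec-187 (WBGene00014137, chromosome IV, 12869270 to 12871513, minus strand) was at 17.1, 11.9, 13.3 and 9.39 in the wild type, 9.08, 7.16, 7.65 and 7.53 in unc-120(st364) larvae, and 8.68, 6.41, 6.87 and 6.69 in fhod-1(tm2363) larvae. Both mutants lay below all wild-type libraries and overlapped each other. The log2 fold change was -0.75 in fhod-1(tm2363) larvae (limma, SE 0.17, adjusted p = 0.0196), a call lost in 5 of 12 fits without 1 library, and -0.63 in unc-120(st364) larvae, where it was not called (limma adjusted p = 0.112, or 0.0491 with the length slope as a covariate). Next to it clec-186, known from infection studies, was at 12.1 ± 3.51, 10.6 ± 2.79 and 7.60 ± 1.45 in wild type, unc-120(st364) and fhod-1(tm2363), and was not called.

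Against wild type, a single C-type lectin gene of the 77 was called in unc-120(st364) larvae, and it fell. This is 1.30% of the tested C-type lectin genes, a share near the background of 1.20% (0.678% lower and 0.522% higher). Over genes at 1 or more in all 12 libraries it was 1 of 56, or 1.79%, with a background of 0.892%. Unadjusted p-values under 0.05 were found for 18 of the 77 (23.4%, background 8.20%), with 8 higher (10.4%, background 4.14%) and 10 lower (background 4.06%). The groups did not overlap in 5 of the 77 (6.49%, background 4.21%), 3 with unc-120(st364) higher (3.90%, background 2.17%) and 2 lower (2.60%, background 2.04%). The median log2 fold change of the 77 was -0.04, beside 0.02 over all tested genes, and 37 lay above 0.

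That gene was clec-178 (WBGene00020585, chromosome IV, 5653949 to 5655004, plus strand). It was at 7.24, 5.50, 4.19 and 5.61 in the wild type, 3.38, 2.70, 2.43 and 2.25 in unc-120(st364) larvae, and 4.63, 4.73, 4.68 and 5.33 in fhod-1(tm2363) larvae. The unc-120(st364) libraries lay below all 8 others, with a log2 fold change against wild type of -0.84 (limma, SE 0.15, adjusted p = 0.00816) that was called in each of the 12 fits without 1 library and had an adjusted p of at most 0.0484 under the other alternatives. It overlaps skn-1, a transcription factor gene, on the other strand. The libraries were made with a stranded kit, but whether strand was used in counting is not given in the sources used here. The gene skn-1 had levels of 20.9 ± 5.19 in the wild type, 22.3 ± 8.73 in unc-120(st364) larvae and 27.3 ± 7.53 in fhod-1(tm2363) larvae, and it was not called.

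Set directly against each other, the mutants differed in 12 of the 77 genes, and all 12 were lower in unc-120(st364) larvae than in fhod-1(tm2363) larvae. This is 15.6%, where 1.51% of all tested genes were lower and 1.97% were called in all. None was higher, where 0.460% of all were. Over genes at 1 or more in all 12 libraries, 11 of 56 were lower (19.6%, background 1.17%) and none higher (background 0.334%). The median log2 difference was -0.25, beside -0.06 over all tested genes, and in 27 of the 77 the highest unc-120(st364) library lay below the lowest of fhod-1(tm2363) (35.1%, background 6.07%), with the reverse in none (background 2.17%, or 8.24% both ways). Unadjusted p-values under 0.05 were found for 34 (44.2%, background 12.8%), 31 lower (40.3%, background 9.63%) and 3 higher (3.90%, background 3.16%). After length correction 15 were lower (19.5%, beside 2.86% of all tested genes). The 12 calls became 5 of 74 tested without fhod-1(tm2363) replicate 2 (background 1.09%), and 6 when fhod-1(tm2363) replicate 1 or unc-120(st364) replicate 3 was left out (backgrounds 1.53% and 1.33%). They became 7 without fhod-1(tm2363) replicate 4 (background 1.38%). Over all tested genes the calls fell from 253 to between 138 and 195 in these fits. This comparison and that of fhod-1(tm2363) with wild type share the fhod-1(tm2363) libraries.

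By size the first was again clec-60, with a log2 difference of -2.90 (limma, SE 0.26, adjusted p = 1.59e-05). Values for clec-82, clec-76, clec-227, clec-10 and clec-218, whose levels are given above, were -1.05, -0.78, -0.70, -0.77 and -0.58, with limma adjusted p-values of 2.18e-04, 0.00261, 0.0292, 0.0433 and 0.0206. That of clec-10 was lost in 9 of the 12 fits without 1 library, and those of clec-227 and clec-218 in 4 each. The gene clec-178 was also lower, by 0.67 on the log2 scale (limma adjusted p = 0.0295), a call lost in 6 of the 12 fits. For clec-264 the levels were 3.52, 5.40, 4.44 and 6.26 in the wild type, 3.73, 3.38, 3.37 and 3.61 in unc-120(st364) larvae, and 7.03, 10.1, 6.99 and 7.35 in fhod-1(tm2363) larvae, with a log2 difference between the mutants of -0.96 (limma, SE 0.16, adjusted p = 0.00375).

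Another 4 genes differed between the mutants while neither mutant was called against wild type in the fit reported. With the length slope as a covariate, clec-5, clec-50 and clec-86 were called higher in fhod-1(tm2363) than in wild type (limma adjusted p = 0.0407, 0.0258 and 0.0414). That fit called 23.9% of all tested genes in this comparison. The wild-type libraries overlapped both mutants in clec-5, clec-80 and clec-86, and unc-120(st364) alone in clec-50. For clec-5 (WBGene00016450, chromosome III, 4881909 to 4883606, minus strand) the levels were 23.9, 16.997, 15.6 and 11.3 in the wild type, 13.6, 7.95, 10.1 and 12.01 in unc-120(st364) larvae, and 26.8, 28.1, 21.99 and 24.6 in fhod-1(tm2363) larvae. The log2 difference between the mutants was -1.17 (limma, SE 0.20, adjusted p = 0.00550), and against wild type it was -0.57 in unc-120(st364) larvae and 0.59 in fhod-1(tm2363) larvae. The gene clec-86 (WBGene00016912, chromosome X, 7139875 to 7140566, plus strand, opposite alh-10), known from infection studies, was at 19.6, 10.7, 11.03 and 13.7 in the wild type, 10.1, 11.1, 8.36 and 8.19 in unc-120(st364) larvae, and 17.7, 18.9, 17.9 and 19.7 in fhod-1(tm2363) larvae.

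For clec-86 the log2 difference between the mutants was -0.91 (limma, SE 0.17, adjusted p = 0.0103), or 0.0501 for the adjusted p with quantile normalization. The abundant clec-50 differed by -0.78 (limma, SE 0.16, adjusted p = 0.0183). For clec-80 (WBGene00043062, chromosome IV, 2823746 to 2828069, plus strand) the means were 8.97 ± 2.12, 6.64 ± 1.22 and 11.9 ± 0.67 in wild type, unc-120(st364) and fhod-1(tm2363), with a log2 difference between the mutants of -0.77 (limma, SE 0.16, adjusted p = 0.0200). The calls of clec-50 and clec-80 were lost in 4 and 5 of the 12 fits without 1 library, with adjusted p-values in limma of 0.0773 and 0.0919 without fhod-1(tm2363) replicate 2. Of the infection list, 4 of 18 tested genes were lower in unc-120(st364) larvae than in fhod-1(tm2363) larvae, namely clec-50, clec-60, clec-82 and clec-86, and none was higher, where 1.51% of all tested genes were lower. Without clec-82 they were 3 of 17. This share too is a description, as the list was chosen with earlier results of these data known.

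**Figure D4:**
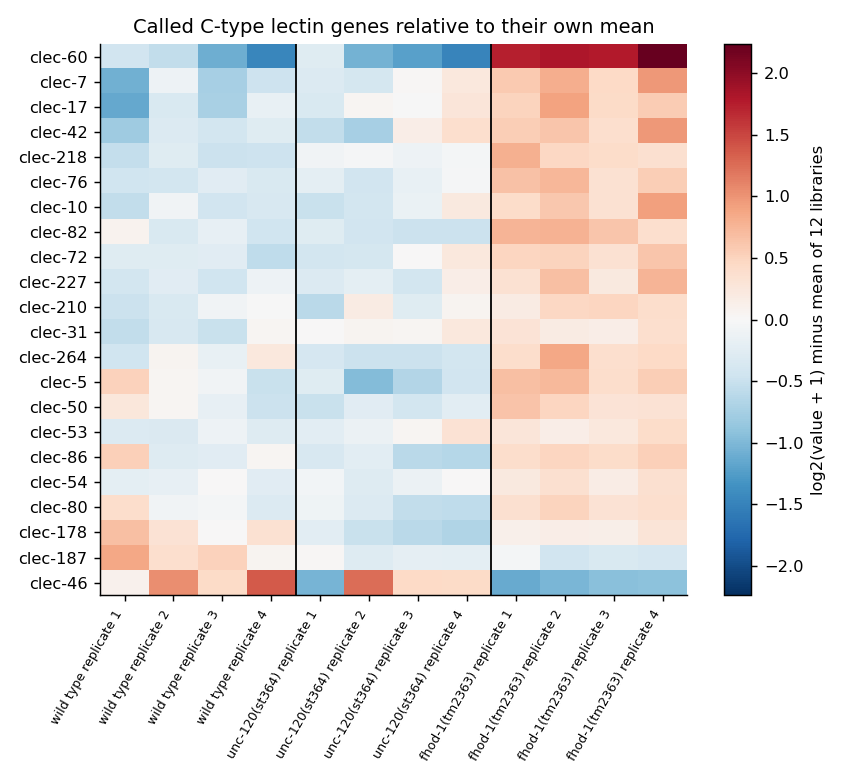
Each called C-type lectin gene (22 rows) in each of 12 libraries (columns), as log2(value + 1) minus the gene's own mean over the 12 libraries. Red is above the mean and blue below, and genes are ordered by their log2 fold change in fhod-1(tm2363) against wild type, from 2.77 for clec-60 at the top to -1.74 for clec-46 at the bottom.

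Many of these genes lie next to each other. Taking members no more than 10 kb apart as 1 run, 146 of the 234 genes fell into 45 runs of 2 to 15 genes and 88 stood alone. Of the tested genes 49 lay in runs and 28 alone, and 14 and 8 of these were called in at least 1 comparison. The 22 are 28.6% of the tested C-type lectin genes, where 6.47% of all tested genes were called in at least 1. Called genes had uncalled genes beside them. In the run of 13 genes on chromosome IV that holds clec-72 and clec-76, 5 were tested and 2 called. There clec-67, at 11.4 ± 1.98 in the wild type and 14.3 ± 1.24 in fhod-1(tm2363) larvae, had a log2 fold change of 0.31 and was not called, and clec-75 had one of 0.30 and was not called either. In the run of clec-80, clec-82, clec-83, clec-84 and clec-85, clec-82 alone was called against wild type.

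Over the 12 libraries the Pearson correlation of log2 values between tested genes of the same run varied widely, from -0.69 to 0.97 with a median of 0.57 over 49 pairs. It was below 0 in 7 pairs and over 0.9 in 5. In the run of clec-80 it was 0.968 for clec-83 and clec-84 and 0.896 for clec-80 and clec-82, while clec-85 ran the other way, at -0.688 with clec-83, -0.652 with clec-84 and -0.519 with clec-80. The other pairs over 0.9 besides clec-45 and clec-46 were clec-72 and clec-76 at 0.926, clec-4 and clec-8 at 0.924, and clec-49 and clec-50 at 0.922. For clec-41 and its neighbour clec-225 it was -0.538. These correlations describe 12 libraries that share the group differences and the length axis, and near copies may share reads. In the wider table, the genes whose log2 values followed clec-63 most closely were cah-3, npr-28 and T22F7.1 (Pearson's r of 0.958, 0.953 and 0.953). For clec-1 they were C34C12.6, zig-10 and R05G6.1 (0.933, 0.891 and 0.857), and for clec-50 cln-3.3, lipl-5 and clec-49 (0.949, 0.944 and 0.922).

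**Figure D5:**
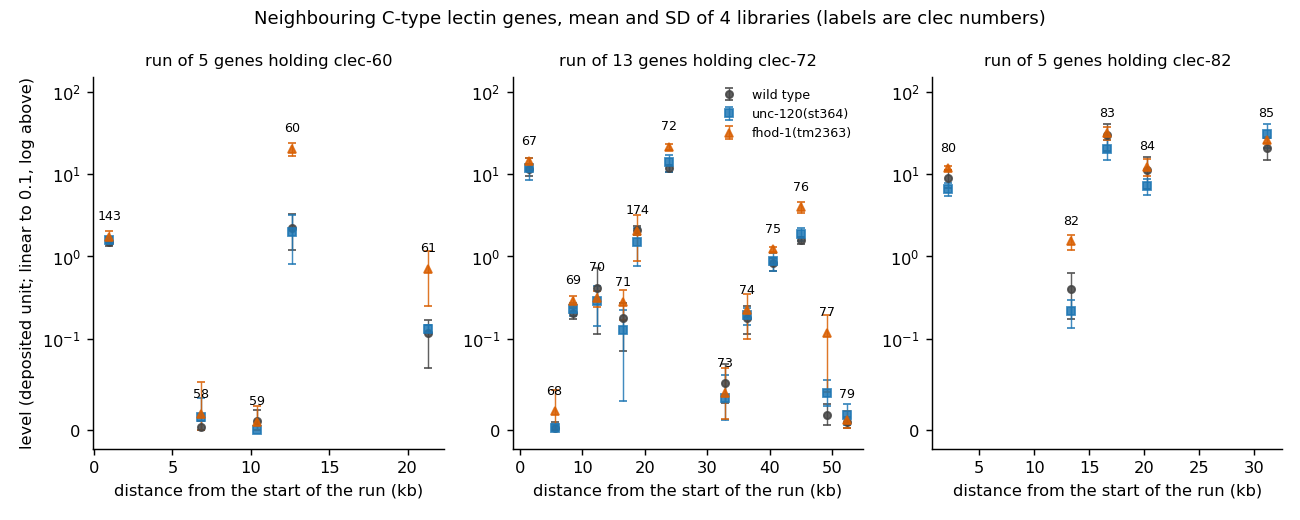
Group means with SD over 4 libraries of the C-type lectin genes in 3 runs, placed by their distance from the start of the run in kb, with the level in the deposited unit (linear to 0.1 and logarithmic above). Numbers are those of the clec genes. In the run of clec-60 the fhod-1(tm2363) mean of clec-60 is 20.3 beside 2.22 in wild type, while clec-143 is at 1.52 to 1.74 in all groups.

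Other genes with roles in the response to infection were compared by list. These lists as well were chosen with earlier results of these data known. Of the p38 MAP kinase pathway, which controls many infection-response genes of the intestine, 9 of 9 genes were tested and none was called in any comparison. The kinase gene pmk-1 itself was at 26.3 ± 2.94 in the wild type, 26.6 ± 4.10 in unc-120(st364) larvae and 27.9 ± 2.28 in fhod-1(tm2363) larvae. None of 12 transcription and signalling regulators of immunity was called, among them the intestinal GATA factor gene elt-2, at 18.8 ± 2.53, 14.3 ± 2.02 and 15.96 ± 1.28. None of 8 genes of the DBL-1 pathway, a TGF-beta pathway with a role in immunity, was called. All 8 lay above 0 in fhod-1(tm2363) against wild type (median log2 fold change 0.27) and below 0 between the mutants (median -0.23). Of the p38 genes 8 lay above 0 and 1 below against wild type (median 0.19), and all 9 below between the mutants (-0.17). For the 12 regulators it was 7 and 5 (median 0.12), and 2 and 10 (-0.12). Medians over all tested genes were 0.07 and -0.06. A p that misses the threshold does not show that these genes did not differ.

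Of the galectins, another family of lectins, 12 of 12 were tested, and 2 fell in fhod-1(tm2363) larvae, where 1.37% of all tested genes fell. These were lec-10, from 438.0 ± 64.1 to 260.8 ± 31.7, and lec-11, from 46.6 ± 11.03 to 24.7 ± 3.38 (limma adjusted p = 0.0381 and 0.0172). Of 15 tested effector genes of the infection response, 3 rose in fhod-1(tm2363) larvae and 1 fell, where 3.86% of all tested genes rose and 1.37% fell. The rises were T24B8.5, fmo-2 and lys-7, with log2 fold changes of 1.58, 1.73 and 2.46 and limma adjusted p-values of 9.3e-05, 3.4e-05 and 5.3e-05, and the fall was that of the lysozyme gene lys-2, with -0.69 (adjusted p = 0.0140). In unc-120(st364) T24B8.5 and fmo-2 rose too, by 0.94 and 0.78 (limma adjusted p = 0.0113 and 0.0334), where 0.522% of all tested genes rose. Between the mutants fmo-2 and lys-7 were lower in unc-120(st364) larvae and lys-2 higher, with log2 differences of -0.95, -1.37 and 0.77 (limma adjusted p = 0.00653, 0.00877 and 0.00886). Over all tested genes 1.51% were lower in that comparison and 0.460% higher.

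Marker genes of tissues were read beside these results. The 10 intestinal markers, all tested, summed to 2482 to 4719 in the wild type, 1916 to 3198 in unc-120(st364) larvae and 2578 to 3788 in fhod-1(tm2363) larvae, and none was called. Most of this sum is asp-1 and act-5, at wild-type means of 2308 and 807. In both mutants act-5 lay below all wild-type libraries, while cpr-1 lay above them in fhod-1(tm2363). Of the 10, 5 had fold changes above 0 and 5 below in fhod-1(tm2363) against wild type, and 4 and 6 in unc-120(st364). The 10 neuronal markers summed to 351.8 to 370.7 in the wild type, 313.1 to 524.2 in unc-120(st364) larvae and 444.0 to 598.5 in fhod-1(tm2363) larvae, so this sum was higher in every fhod-1(tm2363) library than in every wild-type library. All 10 had fold changes above 0 against wild type in both mutants, with log2 medians of 0.47 in fhod-1(tm2363) and 0.20 in unc-120(st364). Of them unc-119 rose in fhod-1(tm2363) larvae, from 2.95 ± 0.62 to 10.5 ± 1.16 (log2 fold change 1.55, limma adjusted p = 1.2e-05). Of the 10 pharyngeal markers phat-1 rose (log2 fold change 1.04, limma adjusted p = 0.0470), and their sum ran from 1004 to 1863 in wild type and from 1569 to 2283 in fhod-1(tm2363) larvae. Most of this sum is mlc-2, at a wild-type mean of 1397. All 10 pharyngeal markers lay above 0 in fhod-1(tm2363) against wild type, with a median log2 fold change of 0.60, beside 0.26 for the tested C-type lectin genes and 0.07 for all tested genes. Between the mutants the median of these markers was -0.62, beside -0.25 for the C-type lectin genes. The 10 germline markers all lay below 0 in fhod-1(tm2363) against wild type, with a median of -0.38, and summed to 64.99 to 107.1 in the wild type and 48.6 to 70.8 in fhod-1(tm2363) larvae. The 10 body-wall muscle markers summed to 3013 to 3848 in the wild type, 2426 to 2696 in unc-120(st364) larvae and 3179 to 3602 in fhod-1(tm2363) larvae, so every unc-120(st364) library lay below all others. The 10 molting-cycle genes all lay below 0 in fhod-1(tm2363) against wild type, with a median log2 fold change of -0.23. None of the 10 body-wall muscle, 6 excretory and glial, 9 hypodermal, 10 germline or 10 molting-cycle genes tested was called, and the 10 sperm genes were under 1 in every library and untested. The part of these differences in the changes of the C-type lectin genes was not tested.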

How the data were processed

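The deposited table gives 1 value per gene and library. The authors' values are called normalized counts in the file's name. They sum to the same total in every library and appear to be scaled by gene length, so the deposited values were treated as TPM up to 1 shared constant. Per the submitters' processing notes, Bowtie2 2.2.5, Partek and the build WBcel235 were used, with no role given. The annotation and the handling of shared reads are not given in the sources used here, and depth is unknown.

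Groups came from the labels (replicate numbers from the description). The source-name label attaches the mutants' strain names the other way round and was not used. Gene starts are those of the deposited table, 1-based on WBcel235. Its stops lie 1 base past the end in Ensembl release 115 for 13004 of 23389 genes, so ends are printed as the stop minus 1. Of the 234 genes, 128 have the same start and 121 the same end as in that release, which also gave exonic lengths for all 234. One further gene with such a symbol is not reported here.

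Values were analysed as log2(value + 1). Genes at 1 or more in at least 4 of 12 libraries were fitted with 1 mean per group over all 12 libraries in limma 3.58.1 under R 4.3.3 (functions lmFit and eBayes, trend on), with Benjamini-Hochberg adjustment over all 12831 genes. Tables and plots used Python 3.11.15, pandas 2.3.3, numpy 2.4.6 and matplotlib 3.10.9. On simulated data for unc-120(st364) against wild type, with 200 of 12831 genes changed, 72% of changes of 1 and 99% of changes of 2 on the log2 scale were recovered, with 3 and 9 false calls, and none of 0.5. The simulated noise was independent between genes, whereas genes in the real libraries share the length axis. These rates therefore check the code and need not hold for the data.

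Alternatives were a pseudocount of 0.5, a minimum of 10, no filter, quantile normalization, a fit of only the 2 groups compared, a block for the replicate number, loess correction for log2 exonic length (span 0.5, degree 1) and leaving out each library. The length slope as a covariate, and block and length correction together, were added after the data were seen. Genes named are those called in any comparison, the 10 of highest mean, the 6 most abundant of the infection list, the closest correlates of the top 3 and called genes of the other lists. Neighbours in a run were named after their values were seen. The members and lists were chosen with earlier results of these data known.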

Additional observations from a re-analysis of the deposited data

Results flagged for a closer look

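In each group of 4 libraries, the gap between an end value and its nearest neighbour was compared with the group's range for the 33 named C-type lectin genes, and 7 of 99 groups had a library far from the others. Chance gives about 1 in 20. In fhod-1(tm2363), replicate 4 was high for clec-60, at 25.8 with the others at 18.1 to 19.0, and for clec-178, at 5.33 with the others at 4.63 to 4.73. In the same group replicate 2 was high for clec-264, at 10.1 with the others at 6.99 to 7.35. In unc-120(st364), replicate 2 was low for clec-180, at 23.3 with the others at 53.4 to 59.2. In wild type, replicate 1 was low for clec-41, at 25.9 with the others at 36.2 to 37.6, replicate 3 was high for clec-53, at 2.30 with the others at 1.84 to 1.91, and replicate 4 was low for clec-72, at 9.86 with the others at 12.2 to 12.5.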

How the results depend on the processing

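The count of called C-type lectin genes was 1 for unc-120(st364) against wild type, 17 for fhod-1(tm2363) against wild type and 12 between the mutants. These were 1.30%, 22.1% and 15.6% of the tested members, beside 1.20%, 5.23% and 1.97% of all tested genes. A minimum of 10 tested 34 of them and gave 0, 4 and 5 calls (0%, 11.8% and 14.7%, beside 0.726%, 3.66% and 1.44% of all). Without a filter all 234 were tested and the counts were 2, 23 and 10 (0.855%, 9.83% and 4.27%, beside 0.757%, 3.24% and 1.19%). With the length slope as a covariate the counts were 2, 28 and 19 (2.60%, 36.4% and 24.7%, beside 3.06%, 23.9% and 6.93%). Block and length correction together gave 7, 32 and 21 (9.09%, 41.6% and 27.3%, beside 5.51%, 26.8% and 10.4%). Length correction alone gave 1, 20 and 15 (1.3%, 26.0% and 19.5%, beside 2.7%, 17.5% and 5.16%). In this fit, with the covariate and with block and length correction together, the counts for fhod-1(tm2363) against wild type were higher. For that comparison the members' share in these fits lay closer to that of all genes than in the fit reported. The cause was not tested, except that the stricter minimum tests fewer genes. Leaving out 1 library gave 1 to 3, 8 to 17 and 5 to 13 calls. Of 30 called results of single genes, 15 kept their call under every alternative that tested them and 16 in every fit without 1 library, and none changed direction while called.

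The replicate numbers paired the libraries unevenly. Over the 12 same-numbered pairs the correlation of deviations ran from -0.65 to 0.81 and was over 0.1 in 5. It was 0.58, 0.47 and 0.61 between the libraries numbered 1, while some other same-numbered pairs lay below 0. Of the 12 libraries 5 correlated best with their own number. With the replicate block the counts were 3, 21 and 14 (3.90%, 27.3% and 18.2%, beside 1.47%, 7.38% and 2.42% of all tested genes). With this block clec-47 was called lower against wild type in fhod-1(tm2363) and in unc-120(st364) (limma adjusted p = 0.00212 and 0.0120), and with length correction added at 4.31e-04 and 0.00266. In unc-120(st364), clec-187 was called lower with the block (limma adjusted p = 0.0438). Between the mutants clec-7 and clec-72, not called in the fit reported, were called lower in unc-120(st364) with quantile normalization (limma adjusted p = 0.0452 and 0.0366). With length correction they were called too (limma adjusted p = 0.0197 and 0.0184). Depth being unknown, genes below the filter could not be judged: 157 of 234 were untested.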
